A study of Mus musculus with 220 samples.

Results

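Selp and Sele, the genes of P-selectin and E-selectin, were followed through single endothelial cells of mouse lymph nodes. They were taken by gene symbol as 2 of the 24049 genes in the deposited table, which holds 1 row for each, and both rows were used in all cells. The 220 cells came from C57BL/6 mice and each had its own library. The inflamed group held 65 high endothelial cells (HEC) harvested on day 3 after 4% Oxazolone, a contact sensitiser, was put on the skin. The dedifferentiated group held 44 HEC harvested on day 7 from mice given LTBR-Ig in 1 intraperitoneal dose. LTBR-Ig is a decoy receptor that captures lymphotoxin. The homeostatic groups held 79 HEC and 32 blood endothelial cells (BEC), all from untreated mice. The sources used here give no age, sex, number of animals, pooling, sort gate or node site, and no vehicle or control-protein group was analysed here.

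Selectins are membrane lectins that let leukocytes tether to and roll along a vessel wall in flowing blood, by binding sialylated and fucosylated glycans on the passing cell. P-selectin is stored ready-made in Weibel-Palade bodies, the secretory granules of endothelium, and reaches the surface within minutes of a stimulus such as histamine or thrombin. E-selectin is not stored and has to be made anew after cytokines such as tumour necrosis factor or interleukin 1. High endothelial venules are the vessels through which lymphocytes enter lymph nodes, and HEC form their walls.

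Selp and Sele lie on chromosome 1 of mouse, both on the plus strand. In the GENCODE annotation of GRCm38, Sele (ENSMUSG00000026582) spans chr1:164048234-164057677 and Selp (ENSMUSG00000026580) spans chr1:164115264-164150026. The gap between the end of Sele and the start of Selp is 57586 bases. Spliced lengths were 3438 bases for Selp and 2912 bases for Sele. The promoters are shown because the results set the levels of these genes side by side. Each sequence, from RefSeq on GRCm38.p6, runs from 250 bases before the start to 50 bases from it, 5′ to 3′ on the plus strand, and capitals mark the motif matches described next. The Selp sequence covers chr1:164115014-164115313 and the Sele sequence covers chr1:164047984-164048283.
Selp: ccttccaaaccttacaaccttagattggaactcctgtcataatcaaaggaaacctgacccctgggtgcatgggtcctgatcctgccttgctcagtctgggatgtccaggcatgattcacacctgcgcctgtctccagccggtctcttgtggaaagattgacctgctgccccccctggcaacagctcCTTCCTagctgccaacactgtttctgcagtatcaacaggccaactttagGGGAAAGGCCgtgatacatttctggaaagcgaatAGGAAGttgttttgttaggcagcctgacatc
Sele: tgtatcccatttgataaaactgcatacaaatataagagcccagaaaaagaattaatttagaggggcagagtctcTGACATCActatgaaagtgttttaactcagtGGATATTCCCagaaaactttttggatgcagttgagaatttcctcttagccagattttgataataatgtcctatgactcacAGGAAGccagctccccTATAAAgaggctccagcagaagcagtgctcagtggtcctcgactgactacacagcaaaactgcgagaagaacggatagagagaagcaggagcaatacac

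A total of 5 motifs were searched on both strands, and no matches overlapped. With the first transcribed base counted as 0, an NF-kB-like motif (GGG and CC set apart by any 5 bases) was matched at -15 to -6 in Selp and, on the minus strand, at -145 to -136 in Sele. Of 32851 promoters of the same length, 50.8% held this motif. A CRE/ATF-like motif (TGACNTCA, in 8.83% of promoters) was matched at -176 to -169 in Sele, and a TATA box (TATAAA, in 13.6%) at -49 to -44 in Sele. The Selp window held neither of these letter strings. An ETS-like motif (AGGAAG, in 35.4%) was matched in both windows, at -64 to -59 on the minus strand and at 19 to 24 in Selp, and at -65 to -60 in Sele. The GATA-like string AGATAA (in 11.2%) was in neither window. Other GATA-like strings were not searched, and TGATAA can be read in the Sele sequence. These matches describe letters only and no binding was measured.

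Levels are FPKM, fragments per kilobase of transcript at a common number of mapped fragments, and since they are per length the genes can be set beside each other. A cell was counted as holding a transcript at an FPKM of 1 or more, which was about 5.10 to 7.49 fragments of either gene at the groups' median approximated depths. Those medians were 2313205 fragments in inflamed HEC, 2278705 in dedifferentiated HEC, 1879196 in homeostatic HEC and 2207399 in BEC. Since the labels name neither animal nor pool, a group counts as 1 sample. The design allows no p-value, and an SD is the spread over cells. Each share has its exact Clopper-Pearson 95% interval, which accounts for the number of cells counted and for nothing else. Differences between groups cannot be told apart from differences between chips or harvest days. Inflamed cells 43 and 60 had near-identical profiles (r = 0.988, against 0.701 for the next closest pair of all cells), with Selp at 261.5 and 288.4 FPKM and Sele at 0 in both. They were averaged and counted once, which left 64 inflamed HEC and 219 cells.

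Selp reached an FPKM of 1 in every inflamed HEC, though 11 of the 64 cells lay below 10. Its lowest, median and highest FPKM were 2.10, 201.2 and 1943 in inflamed HEC. They were 0.09, 10.4 and 411.6 in dedifferentiated HEC, and 0, 3.43 and 400.2 in homeostatic HEC. In BEC they were 0, 0.27 and 1.35. The inflamed median lay well above the other medians, yet inflamed and both other HEC groups overlapped, while no inflamed HEC fell as low as the highest BEC.

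Selp reached an FPKM of 1 in 64 of 64 inflamed HEC (100%, interval 94.4% to 100%), in 33 of 44 dedifferentiated HEC (75%, 59.7% to 86.8%), in 46 of 79 homeostatic HEC (58.2%, 46.6% to 69.2%) and in 5 of 32 BEC (15.6%, 5.28% to 32.8%). At an FPKM of 10 the numbers were 53 of 64 inflamed (82.8%), 22 of 44 dedifferentiated (50%) and 32 of 79 homeostatic HEC (40.5%), and none of 32 BEC. At an FPKM of 100 they were 37, 9 and 13 cells in the inflamed, dedifferentiated and homeostatic HEC. The step from 1 to 10 therefore removed all 5 BEC and 11 of 64 inflamed HEC. The 11 inflamed cells below 10 lay between 2.10 and 6.91 FPKM, and the next cell stood at 14.55. In homeostatic HEC, 13 cells were listed at 0 and another 20 lay between 0 and 1, whereas no inflamed or dedifferentiated HEC was listed at 0. Rescaling every cell to a sum of 1000000, from group medians of 469532 to 664817, raised the values of all groups. At an FPKM of 1 or more it put Selp in 84.1% of dedifferentiated and 63.3% of homeostatic HEC and in 37.5% of BEC. For Sele the shares were 40.9%, 29.1% and 12.5% in the same order. In inflamed HEC they were 100% for Selp and 54.7% for Sele.

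That every inflamed HEC reached an FPKM of 1 has to be set beside the gene's high mean there. Selp averaged 405.8 FPKM in inflamed HEC and ranked 235 of 14787 genes above 0 by mean FPKM. Of the 211 genes with a mean within 1.5 times that of Selp, 119 (56.4%) also reached an FPKM of 1 in every inflamed HEC. The rank of Selp was 1510 of 12905 genes in dedifferentiated HEC, 1676 of 14897 in homeostatic HEC and 9873 of 13618 in BEC.

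**Figure D1:**
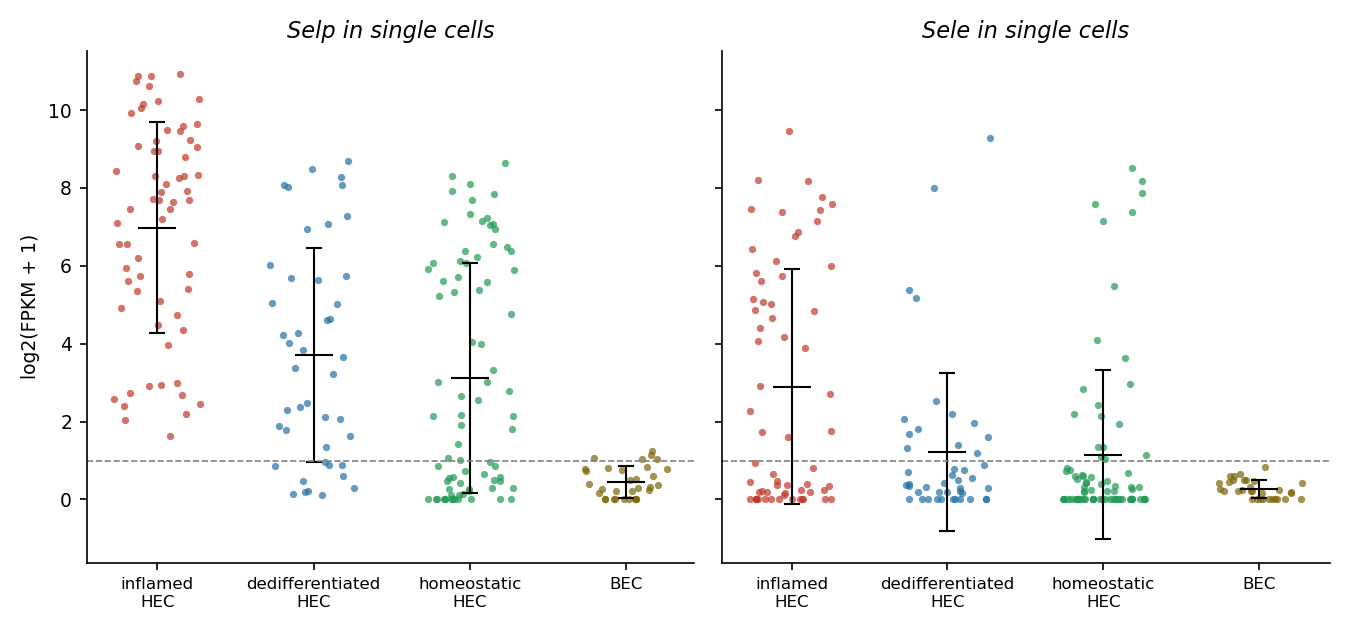
Selp (left) and Sele (right) in single cells of the 4 groups as log2(FPKM + 1), with 1 point a cell, bars for the mean and SD over cells, and a dashed line at an FPKM of 1. All 64 inflamed HEC lie above the Selp line, and no BEC lies above the Sele line.

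Sele was spread over fewer cells than Selp and stood high in a minority of them. Its lowest, median and highest FPKM were 0, 2.19 and 706.0 in inflamed HEC. They were 0, 0.33 and 625.2 in dedifferentiated HEC, and 0, 0.16 and 363.4 in homeostatic HEC. In BEC they were 0, 0.17 and 0.79, so every HEC group overlapped BEC at its low end, while the inflamed median lay above every BEC.

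Sele reached an FPKM of 1 in 33 of 64 inflamed HEC (51.6%, 38.7% to 64.2%), in 14 of 44 dedifferentiated HEC (31.8%, 18.6% to 47.6%), in 20 of 79 homeostatic HEC (25.3%, 16.2% to 36.4%) and in 0 of 32 BEC, where the interval reached 10.9%. At an FPKM of 10 the numbers were 27 of 64 inflamed (42.2%), 4 of 44 dedifferentiated (9.09%) and 9 of 79 homeostatic HEC (11.4%). At this limit the dedifferentiated share was below the homeostatic one, the opposite order to that at an FPKM of 1, with intervals of 2.53% to 21.7% and 5.34% to 20.5%. In cells of a shared range of detected genes, 16 inflamed, 11 dedifferentiated and 16 homeostatic HEC, the shares at an FPKM of 1 were 31.2%, 54.5% and 12.5%, which places dedifferentiated above inflamed HEC. Of the summed Sele FPKM of a group, 1 cell held 63.1% in dedifferentiated HEC and 5 cells held 83.0% in homeostatic HEC, against 52.6% for the top 5 of inflamed HEC. Group means of Sele in FPKM therefore rest on few cells: they were 50.3 in inflamed, 22.5 in dedifferentiated and 18.9 in homeostatic HEC, and 0.22 in BEC.

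On the log2(FPKM + 1) scale, Selp averaged 6.98 ± 2.71 in inflamed HEC, 3.72 ± 2.74 in dedifferentiated HEC, 3.12 ± 2.96 in homeostatic HEC and, in BEC, 0.45 ± 0.40 (SD over 64, 44, 79 and 32 cells). Sele averaged 2.90 ± 3.02, 1.22 ± 2.03, 1.15 ± 2.17 and 0.26 ± 0.24 in the same groups. By mean both genes had the same order of groups, but for Sele the order of dedifferentiated and homeostatic HEC turned round with a pseudocount of 10 and without cells that held markers of another cell type. For Selp, inflamed HEC stood above dedifferentiated and homeostatic HEC by more than the SD of any group, dedifferentiated and homeostatic HEC differed by much less than their SD, and homeostatic HEC and BEC by less than the SD of HEC. For Sele, no 2 neighbouring groups differed by more than the larger SD of the pair.

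The comparison of inflamed with homeostatic HEC asks what differs in these cells after a contact sensitiser was put on the skin. Selp was higher in inflamed HEC by 3.86 and Sele by 1.75. A difference of at least 1 in either direction was called, among 9525 genes present at an FPKM of 1 in over 10% of the cells of either group. Of these, 5.48% were called higher and 2.6% lower, and the median of all was 0.10. Both selectins were called higher: Selp ranked 2 of 9525 from the top and Sele ranked 99. As mean FPKM, Selp was 8.50 times and Sele 2.66 times the homeostatic level. With a pseudocount of 10 in place of 1, the Sele difference was 0.88, which ends the call.

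Dedifferentiated HEC, from mice given LTBR-Ig, were set beside homeostatic HEC from untreated mice. Selp differed by 0.59 and Sele by 0.08, so neither was called. Of 9008 genes, 0.833% were called higher and 9.52% lower, with a median of -0.30, and Selp ranked 293 and Sele 1786 from the top. Measured from that median the differences were 0.89 for Selp and 0.37 for Sele. Neither selectin was among the many genes called lower after LTBR-Ig. In cells of a shared range of detected genes, 11 dedifferentiated and 16 homeostatic HEC, the differences were 1.04 for Selp and 1.36 for Sele, both past 1, and with a pseudocount of 0.1 Selp differed by 1.12. The Sele difference turned to -0.03 with a pseudocount of 10 and to -0.45 without cells that held markers of another cell type.

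Homeostatic HEC were above BEC by 2.67 in Selp and by 0.88 in Sele. Of 9248 genes, 17% were called higher and 4.4% lower, with a median of 0.28. Selp was called and ranked 198, and Sele was not called and ranked 1846. Sele passed 1 with a pseudocount of 0.1 (1.08), without cells that held markers of another cell type (1.19) and as the log2 ratio of arithmetic means (4.03). Inflamed HEC were above BEC by 6.53 in Selp and 2.63 in Sele, and dedifferentiated HEC by 3.27 in Selp and 0.96 in Sele. Inflamed HEC were above dedifferentiated HEC by 3.26 in Selp and 1.67 in Sele. These comparisons share groups, so they are not independent of each other. In cells of a shared range of detected genes, 16 inflamed and 11 dedifferentiated HEC, the Sele difference between them was 0.13, and with a pseudocount of 10 over all cells it was 0.91. The Sele difference between dedifferentiated HEC and BEC passed 1 under 4 alternatives, at 1.07 to 4.27.

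Low FPKM in BEC have to be read beside the abundant HEC transcripts that every BEC also contained. Glycam1, the secreted sialomucin of HEC, lay between 32.8 and 594.2 FPKM in the 32 BEC, and Ccl21a, a chemokine of HEC, between 14.8 and 123.2. The part of this in the low Selp and Sele values of BEC was not tested. Whether Selp from outside the cell adds to low HEC values was likewise not tested. Such values include the 11 inflamed HEC between 2.10 and 6.91 FPKM. The number of genes at an FPKM of 1 or more had medians of 3961 in inflamed, 3075 in dedifferentiated and 3842 in homeostatic HEC, and 2871 in BEC. Over cells, r of this number with Selp was 0.01 in inflamed, 0.29 in dedifferentiated and 0.14 in homeostatic HEC and 0.40 in BEC. Its part in the differences was not tested.

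Platelets also carry P-selectin, and platelet RNA on an endothelial cell could add Selp reads. Of 12 platelet and megakaryocyte markers, 8 were at 0 in all inflamed HEC, 7 in all dedifferentiated HEC, 7 in all homeostatic HEC and 8 in all BEC, among them Ppbp, Gp1bb, Gp9 and Treml1 in every group. The summed FPKM of the list ran from 0 to 357.9 in inflamed, 0 to 384.6 in dedifferentiated and 0 to 1572 in homeostatic HEC and 0 to 209.6 in BEC. Pf4, a platelet chemokine, gave nearly all of the highest sum in each group and reached an FPKM of 1 in 24 inflamed, 7 dedifferentiated and 49 homeostatic HEC and 3 BEC. Pf4 was thus present in fewer inflamed than homeostatic HEC, whereas Itgb3 and Itga2b, integrin genes of the same list, were present in more. Itgb3 reached an FPKM of 1 in 17 inflamed, 3 dedifferentiated and 5 homeostatic HEC and 4 BEC, and its r with Selp was 0.27, 0.15, 0.17 and 0.21 in the same order. Itga2b did so in 12, 4, 5 and 0 cells. For Pf4, r with Selp was 0.01 in inflamed, -0.25 in dedifferentiated and 0.03 in homeostatic HEC and 0.03 in BEC. At least 2 platelet markers at an FPKM of 10 were found in 2 inflamed, 0 dedifferentiated and 3 homeostatic HEC and 0 BEC. The part of platelet RNA in the Selp levels was not tested.

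Markers of platelets, leukocytes, pericytes, fibroblastic reticular cells or erythroid cells, at least 2 of a list at an FPKM of 10, were found in 12 of 64 inflamed, 7 of 44 dedifferentiated and 22 of 79 homeostatic HEC and in 2 of 32 BEC. The general leukocyte list was met in 10 inflamed, 6 dedifferentiated and 20 homeostatic HEC and 1 BEC. Lcp1, a gene of that list, reached an FPKM of 1 in 84.8% of homeostatic HEC and 65.6% of BEC. A marked cell therefore need not hold RNA of another cell type. Among the marked cells, Selp reached an FPKM of 1 in all 12 inflamed and all 7 dedifferentiated HEC and in 9 homeostatic HEC. Without them, Selp was higher by 3.57 and Sele by 1.67 in inflamed than in homeostatic HEC. The labelled cell types could be checked on their defining markers. The high endothelial list summed to a median of 28696 FPKM in inflamed, 78161 in dedifferentiated and 141226 in homeostatic HEC and to 443.6 in BEC. The capillary list summed to 1698, 1899 and 935.2 FPKM in the HEC groups in the same order and to 11612 in BEC. At least 2 of 7 lymphatic markers, a list that shares Ccl21a with the high endothelial one, were found at an FPKM of 10 in 20 inflamed, 3 dedifferentiated and 4 homeostatic HEC and 9 BEC. The lymphatic regulator Prox1 was at 0 in all cells of the 3 HEC groups. Lyve1, a hyaluronan receptor of lymphatic endothelium, reached an FPKM of 1 in 31.2% of inflamed and 11.4% of homeostatic HEC, a difference of 1.54 on the log2 scale. Its part in the selectin levels was not tested.

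The pair of genes was next read within single cells. At an FPKM of 1, inflamed HEC divided into 33 cells with both transcripts and 31 with Selp alone, and no cell had Sele alone or neither. Dedifferentiated HEC divided into 14 with both, 19 with Selp alone, 0 with Sele alone and 11 with neither. Homeostatic HEC divided into 16 with both, 30 with Selp alone, 4 with Sele alone and 29 with neither. BEC held 5 cells with Selp alone and 27 with neither. Sele without Selp was seen at this limit in homeostatic HEC only, in 4 cells.

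Among cells with Sele, Selp was present in 33 of 33 inflamed (100%, 89.4% to 100%), in all 14 dedifferentiated HEC (100%, 76.8% to 100%) and in 16 of 20 homeostatic HEC (80%, 56.3% to 94.3%). If the shares of cells with each gene were multiplied, 33 inflamed, 10.5 dedifferentiated and 11.6 homeostatic HEC would hold both, beside the observed 33, 14 and 16. In inflamed HEC the figures are equal because every cell held Selp. At an FPKM of 10, both were present in 25 inflamed, 1 dedifferentiated and 6 homeostatic HEC, Selp alone in 28, 21 and 26, and Sele alone in 2, 3 and 3. Multiplied shares at this limit would give 22.4, 2.0 and 3.65 cells with both. Dedifferentiated HEC thus lay below the product at 10 and above it at 1. The share of Sele cells that held Selp was then 92.6% in inflamed and 66.7% in homeostatic HEC, and 25% of only 4 Sele cells in dedifferentiated HEC.

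**Figure D2:**
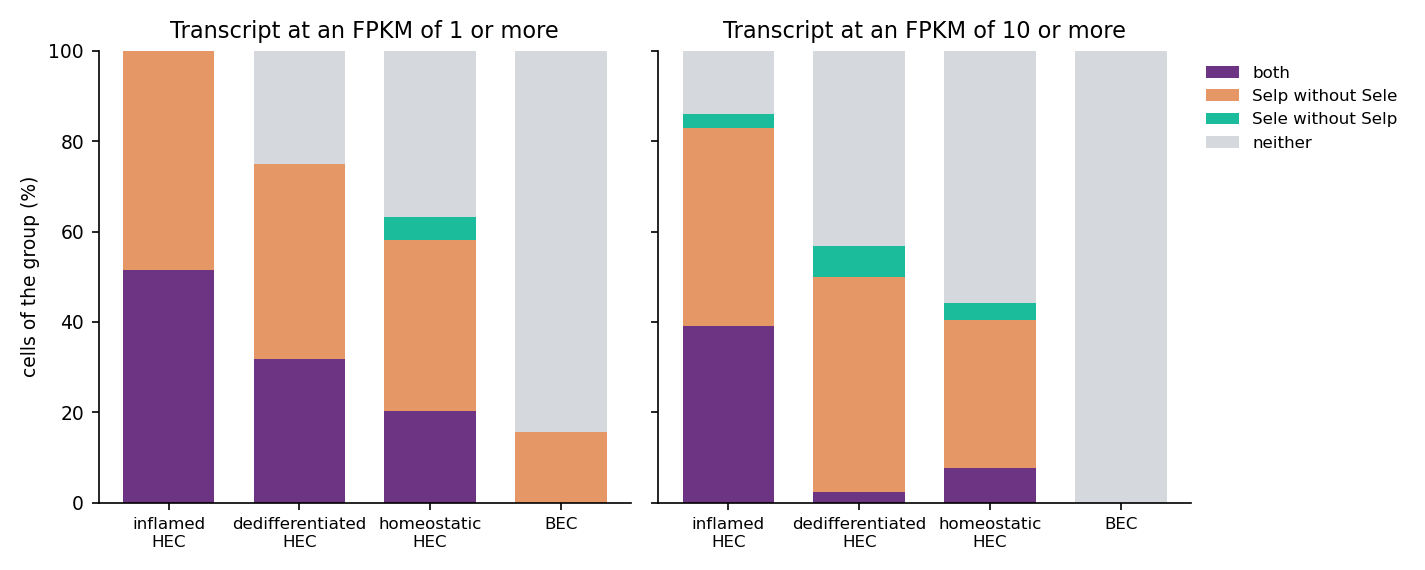
Share of cells (%) with both transcripts, Selp without Sele, Sele without Selp, or neither, in the 4 groups at an FPKM of 1 (left) and 10 (right). Inflamed HEC have both transcripts in 33 of 64 cells at an FPKM of 1, and BEC have none with both.

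Levels of the genes moved together only weakly from cell to cell. Between log2 values of Selp and Sele, Pearson r was 0.27 in inflamed, 0.05 in dedifferentiated and 0.27 in homeostatic HEC and 0.27 in BEC. The Spearman correlation was 0.29, 0.43, 0.23 and 0.29 in the same groups. These describe cells of 1 sample each, and cells of a group share their treatment and harvest. The measures parted in dedifferentiated HEC, where the 3 cells highest in Sele had between 2.07 and 8.37 FPKM of Selp, and Pearson r there turned to -0.11 with a pseudocount of 10.

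The cells with the highest Sele show how far the levels could part. Inflamed cell 63 had 706.0 FPKM of Sele and 4.93 of Selp, whereas inflamed cell 62 had 291.7 of Sele and 1891 of Selp. Dedifferentiated cell 40 had 625.2 FPKM of Sele and 3.37 of Selp, and dedifferentiated cell 14 had 256.8 of Sele and 2.07 of Selp. Homeostatic cell 13 had 363.4 FPKM of Sele and 4.90 of Selp. Homeostatic cell 74 had 287.3 FPKM of Sele and 82.3 of Selp, and homeostatic cell 32 had 140.5 of Sele and 274.1 of Selp. High Sele thus occurred beside both low and high Selp in inflamed and in homeostatic HEC. Sele exceeded Selp in 7 of the 33 inflamed, 4 of the 14 dedifferentiated and 12 of the 20 homeostatic HEC that held Sele.

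**Figure D3:**
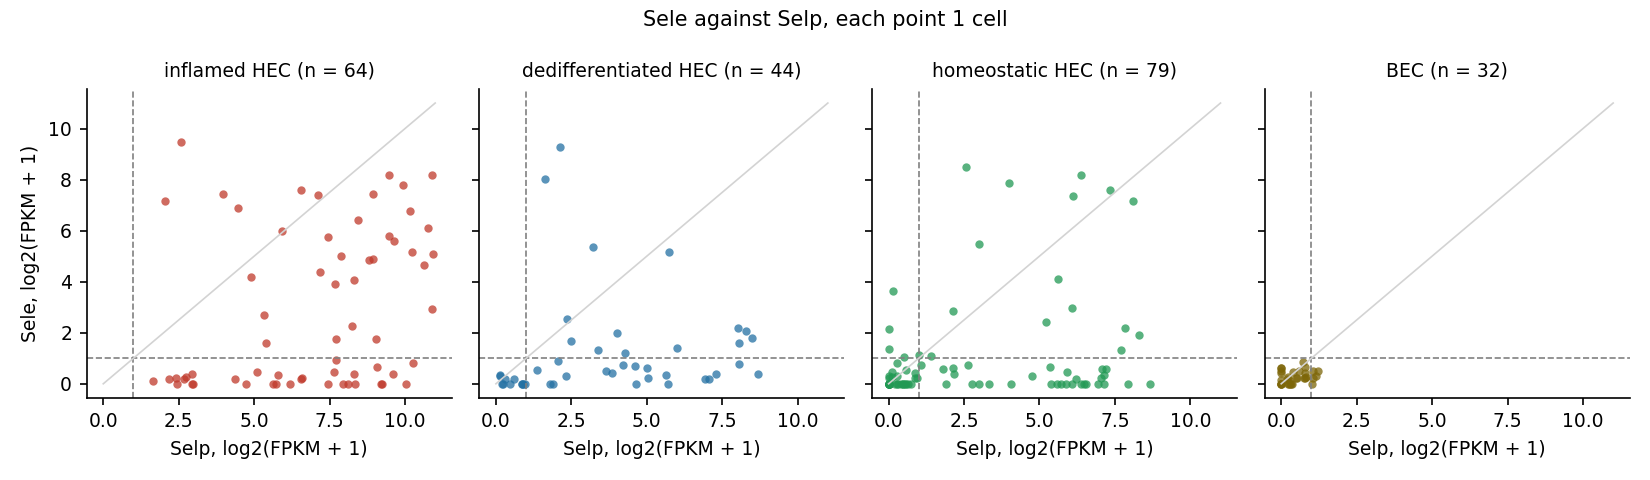
Sele against Selp as log2(FPKM + 1), with 1 point a cell and 1 panel a group. Dashed lines mark an FPKM of 1 and the grey line marks equal levels; 7 of 33 inflamed, 4 of 14 dedifferentiated and 12 of 20 homeostatic HEC with Sele lie above equality.

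The rest of the pathway was read from lists, which were chosen with earlier results of these data known. The share of all genes called in each comparison, given above, is the background for their counts. Selectin ligand carriers are glycoproteins whose glycans selectins bind. Besides the selectins, 7 of this list were compared between inflamed and homeostatic HEC, with 1 higher (Podxl, podocalyxin, at 2.37 in inflamed and 1.17 in homeostatic HEC) and 1 lower (Cd24a, a small sialoglycoprotein, -2.73). Selplg, the gene of the main P-selectin ligand of leukocytes, was below the detection limit for comparison, with means of 0.12 and 0.16 in inflamed and homeostatic HEC. Cd34, a sialomucin of endothelium, averaged 8.72 in both inflamed and homeostatic HEC.

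Weibel-Palade body genes, the store and release machinery of P-selectin, were mostly level between inflamed and homeostatic HEC. Of 17 compared, 3 were higher and 1 was lower, with a median of 0.11 against 0.10 for all genes. The higher ones were Anxa2 (2.64) and S100a10 (2.29), which form a complex that acts in granule release, and Igfbp7 (1.33). Cd63, a tetraspanin of the granule membrane, was lower by 1.09, at 6.27 in inflamed and 7.36 in homeostatic HEC. Vwf, the main cargo, differed by 0.27. In dedifferentiated HEC, 1 of 18 was higher (Vwf, 1.98) and 2 were lower, Vamp8 (-1.49) and Snap23 (-1.15), which are membrane fusion proteins. In homeostatic HEC against BEC, 6 of 17 were higher and none lower, led by Cd63 (6.03), Vwf (2.48) and Snap23 (1.95). The other 11 did not pass 1, among them Anxa2 (-0.98). Vwf and Cd63 were thus higher in homeostatic HEC than in BEC, and neither was called higher in inflamed than in homeostatic HEC.

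Receptors for signals that induce selectins had 2 of 13 higher and none lower in inflamed HEC: Ltbr, the lymphotoxin β receptor (1.88), and Tnfrsf1a, a receptor for tumour necrosis factor (1.29). Il1r1, the interleukin 1 receptor, stood at 7.62 in inflamed and 6.80 in homeostatic HEC, a difference of 0.82. In dedifferentiated HEC, Tnfrsf1a was higher (1.43) and Il13ra1 (-1.36) and F2r, a thrombin receptor (-1.47), were lower among 13. Against BEC, 5 of 13 were higher in homeostatic HEC, with Il6st (4.59), a shared receptor of the interleukin 6 family, in front. The histamine receptor Hrh1 averaged 0.00 in inflamed and homeostatic HEC.

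Transcription factors known from selectin promoters had 1 of 22 higher (Foxo1, 1.23) and 2 lower, Fos (-4.33) and Jun (-2.38), in inflamed HEC. The NF-kB subunit Nfkb1 (0.87) and its partner Bcl3 (0.95) stayed under 1, and Rela was at -0.04. Feedback genes of NF-kB, whose transcription rises when the pathway is active, had 0 of 9 higher and 3 lower: Nfkbiz (-2.50), Nfkbia (-1.21) and Tnfaip3 (-1.18). In dedifferentiated HEC, 5 of these 9 were lower and none higher, among them Tnfaip3 (-1.88) and Birc3 (-1.74). In homeostatic HEC against BEC, 7 of 9 were higher and Tnfaip2 (-1.10) was lower. In inflamed HEC both selectins were called higher than in homeostatic HEC and no feedback gene was. The part of NF-kB in the selectin levels was not tested. Dissociation and heat shock markers overlap the transcription factor list through Fos, Jun and Atf3. Of 14, none was higher and 8 were lower in inflamed HEC, and 11 were higher and 1 was lower in homeostatic HEC against BEC. Their summed FPKM had medians of 479.6 in inflamed, 1148 in dedifferentiated and 1679 in homeostatic HEC and 500.5 in BEC. Their part in these results was not tested.

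Other adhesion molecules of leukocyte entry did not share the selectin pattern as a list. Among 13 compared between inflamed and homeostatic HEC, 2 were higher, Cd47 (1.99) and Madcam1, an integrin ligand (1.22), and Jam3, a junctional adhesion molecule, was lower (-2.78). The integrin ligands Icam1 (-0.36) and Vcam1 (-0.15), which cytokines also induce, differed by less than 1. In dedifferentiated HEC, 1 of 12 was lower (Jam3, -1.99) and none higher. In homeostatic HEC against BEC, 3 of 12 were higher, Icam1 (4.75), Bst1 (3.27) and Vcam1 (2.06), and Jam2 was lower (-1.33). As a level, Icam1 stood at 5.35 in inflamed and 5.71 in homeostatic HEC on the log2(FPKM + 1) scale, so that Selp was the lower of the pair in homeostatic HEC and the higher in inflamed HEC.

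**Figure D4:**
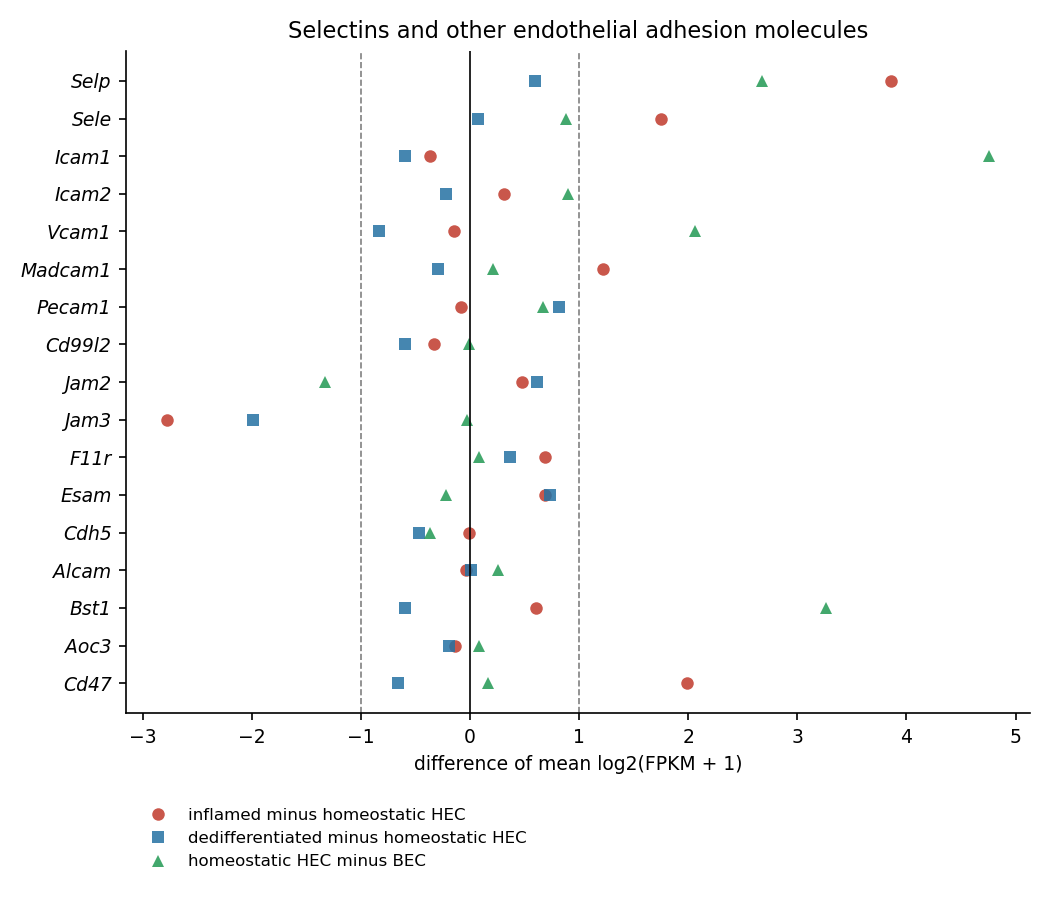
Differences of mean log2(FPKM + 1) between groups for Selp, Sele and 15 other endothelial adhesion molecules, with dashed lines at -1 and 1. In the inflamed comparison Selp (3.86) stands furthest to the right, ahead of Cd47 (1.99) and Sele (1.75).

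Among 8 inflammatory chemokines and related genes, Cxcl9, an interferon-induced chemokine, was higher (2.19) and Cxcl1, a neutrophil chemokine, lower (-3.49) in inflamed HEC. In dedifferentiated HEC, 1 of 8 was lower (Cxcl1, -3.86) and none higher. Of 11 venous genes other than Selp, 3 were higher in inflamed HEC and none lower: Lrg1 (1.43), Tmsb10 (1.14) and Nr2f2, a regulator of venous identity (1.03). The venous list shares Vwf, Ackr1, Vcam1, Icam1 and Il1r1 with the lists above. High endothelial markers went the other way, with 5 of 7 lower in inflamed HEC. The 1 higher was Madcam1, which was compared only through its share of inflamed cells.

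Genes whose level followed Selp or Sele from cell to cell were ranked by Pearson r of log2 values over the 219 cells, each gene centred on its group mean. The ranking covered the 5793 genes with an FPKM of 1 or more in at least 20% of cells. Their median r was 0.03 with Selp and 0.02 with Sele, and the 5th and 95th percentiles were -0.09 and 0.14 for either. All values were low, and they describe cells, which are not replicates. Selp and Sele had r = 0.22 with each other, which placed Sele at rank 16 for Selp and Selp at rank 14 for Sele.

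The 10 genes most like Selp were Rcan1, a regulator of calcineurin (0.33), Ackr1, the atypical chemokine receptor of venules (0.29), the phosphatase Ptpre (0.28), Tiparp, an ADP-ribosyltransferase (0.27), endothelial lipase Lipg (0.26), the proteoglycan Vcan (0.25), the prostaglandin transporter Slco2a1 (0.25), complement C1ra (0.25), Cdc42ep4 (0.24) and the matrix gene Fbln2 (0.24). Each of these had a positive r in all 3 HEC groups, which their choice by pooled r over the same cells favours. In BEC, r was negative for Rcan1 (-0.14), Tiparp (-0.14) and Vcan (-0.05) and positive for the others. Rcan1 had r of 0.40 in inflamed, 0.27 in dedifferentiated and 0.32 in homeostatic HEC, the most even of the first 3, whereas Ptpre had 0.39, 0.51 and 0.06. The 5 genes with the lowest r were Chrac1 (-0.24), Ly6i (-0.23), Ly6c2 (-0.23), Cyba (-0.23) and Kctd20 (-0.22). Ly6i and Ly6c2 belong to a family of closely similar genes, and the division of reads among them is uncertain.

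The 10 genes most like Sele were Ssrp1, a histone chaperone subunit (0.30), Fam69a (0.27), the proteasome subunit Psmb4 (0.26), Mex3c, an RNA-binding ubiquitin ligase (0.25), Tnfaip3, an NF-kB feedback gene (0.25), the small GTPase Rnd1 (0.24), the repressor Rest (0.24), the proteasome subunit Psmd2 (0.23), Nsf, which takes apart membrane fusion complexes (0.23), and Slco2a1 (0.23). Tnfaip3 had r of 0.19 in inflamed, 0.40 in dedifferentiated and 0.29 in homeostatic HEC. The 5 lowest were Rasal1 (-0.20), Asah2 (-0.19), Tfpi, an inhibitor of coagulation (-0.18), Sdr39u1 (-0.17) and Unc50 (-0.17). Slco2a1 was the only gene on both top 10 lists.

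**Figure D5:**
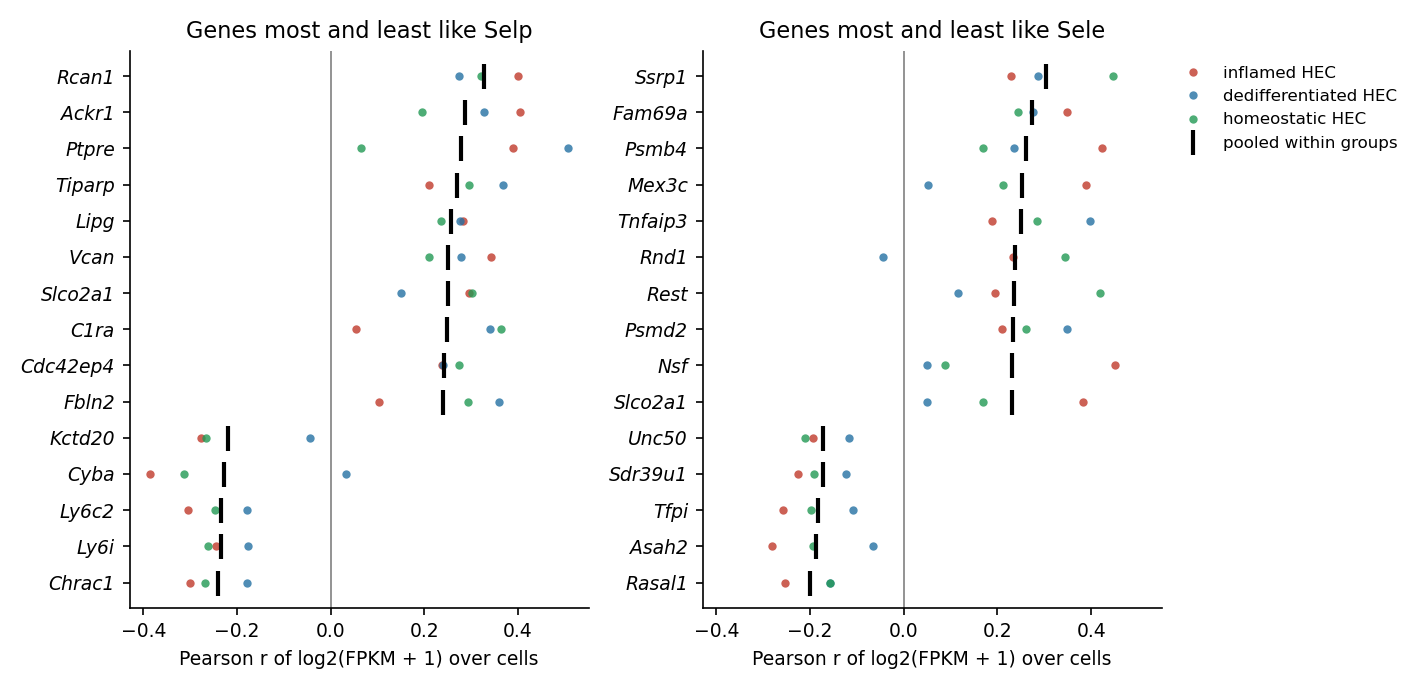
Pearson r over cells with Selp (left) and Sele (right) for the 10 genes with the highest and 5 with the lowest pooled r. Coloured points give r within each HEC group and black bars the pooled value, and all pooled values lie between -0.24 and 0.33.

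From the lists, Selp had an r above the 95th percentile of all genes with 5 of 11 other venous genes present in enough cells: Ackr1, Vwf (0.19), Tmsb10 (0.16), Lrg1 (0.16) and Ephb4 (0.15). It had such an r with 3 of 11 inducing receptors, Il6st (0.18), Lifr (0.15) and Tnfrsf1a (0.14), and with 2 of 15 Weibel-Palade genes, Vwf and Snap23 (0.15). With Cd63 it had r = -0.12, under the 5th percentile. Sele had such an r with 2 of 11 receptors, F2r (0.18) and Tnfrsf1a (0.15), with 1 of 15 Weibel-Palade genes, Anxa2 (0.18), and with Cxcl1 (0.16) and Ackr1 (0.15). Under the 5th percentile for Sele were 2 of the 15 Weibel-Palade genes, Stx3 (-0.11) and Angpt2 (-0.09), and 1 of the 11 receptors, Tnfrsf1b (-0.13). With Glycam1, a marker of the high endothelial list, both Selp and Sele had r = -0.15. Glycam1 and Ccl21a together made up a median of 4.06% of summed FPKM in inflamed, 11.8% in dedifferentiated and 20.8% in homeostatic HEC. With a cell's summed FPKM, r of Selp was -0.28, 0.03 and -0.33 in the same order, and -0.04 in BEC. For Sele it was -0.12, -0.02, -0.17 and 0.04. The part of this in the r with Glycam1 was not tested.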

How the data were processed

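Sorted cells from dissociated nodes were captured and reverse-transcribed on a Fluidigm C1, with Nextera XT libraries, per the labels' protocols. The authors deposited FPKM values for 24049 genes in 220 cells. The submitters' processing notes name CASAVA 1.8, RSEM 1.2.18 and mm10; their roles, the annotation and any cell filter are not given here. No count model suits FPKM, and none was run. From the deposited FPKM, log2(FPKM + 1) was computed (Python 3.11.15, pandas 2.3.3, scipy 1.17.1); the pseudocount of 1 understates differences of low genes. Depth was approximated from the step sizes of low values by an estimator chosen after the values had been seen. There were no molecular tags, so amplified copies were counted too. Cells are not replicates, so groups were described without a test. Code for differences and correlations was checked on deposited values shuffled within groups, with known changes put in. The depth estimator was checked on simulated counts with a known length correction, whereas that for real cells was picked from the data.

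The members, lists and rules were chosen with earlier results of these data known. Besides Selp and Sele, the genes named were list members and, for each selectin, the 10 with the highest and 5 with the lowest pooled r, leaving out predicted, clone, ribosomal protein, haemoglobin and small RNA genes. Of the genes this rule allows, 1 is not reported here. Alternatives were other pseudocounts, detection limits, rescaling, arithmetic means, a shared range of detected genes, cells without markers of another type, and all 220 cells.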

Additional observations from a re-analysis of the deposited data

How the results depend on the processing

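Of 191 values recomputed under alternatives, 135 stayed within limits set here for want of replicates (1.5-fold for a difference, 0.1 for a correlation, the interval for a share), and 56 moved beyond them. In all, 4 values changed sign: the Sele difference of dedifferentiated HEC minus homeostatic HEC (-0.03 with a pseudocount of 10, -0.45 without cells with markers of another type) and the correlations in dedifferentiated HEC and BEC given below. Of the differences, 10 gained and 3 lost a call at 1, among them Selp at 1.12 (pseudocount of 0.1) and 1.04 (shared range) for dedifferentiated HEC minus homeostatic HEC and Sele at 1.08 (pseudocount of 0.1) and 1.19 (without cells with markers of another type) for homeostatic HEC minus BEC and at 1.07 (rescaled without Glycam1 and Ccl21a) for dedifferentiated HEC minus BEC. Counting all 220 cells moved none beyond them, and leaving out cells with markers of another type moved 1 beyond them, a correlation. No difference that was past 1 changed direction. With a pseudocount of 0.1, Selp was 3.58 for homeostatic HEC minus BEC, 4.83 for inflamed HEC minus homeostatic HEC, 8.42 for inflamed HEC minus BEC and 4.70 for dedifferentiated HEC minus BEC and Sele was 2.56 for inflamed HEC minus homeostatic HEC, 3.63 for inflamed HEC minus BEC and 1.55 for dedifferentiated HEC minus BEC. With a pseudocount of 10, Selp was 1.38 for homeostatic HEC minus BEC, 2.55 for inflamed HEC minus homeostatic HEC, 2.34 for inflamed HEC minus dedifferentiated HEC, 3.93 for inflamed HEC minus BEC and 1.59 for dedifferentiated HEC minus BEC and Sele was 0.88 for inflamed HEC minus homeostatic HEC, 0.91 for inflamed HEC minus dedifferentiated HEC and 1.32 for inflamed HEC minus BEC. As the log2 ratio of arithmetic means, Selp was 5.10 for homeostatic HEC minus BEC, 3.06 for inflamed HEC minus homeostatic HEC, 8.16 for inflamed HEC minus BEC and 5.48 for dedifferentiated HEC minus BEC and Sele was 4.03 for homeostatic HEC minus BEC, 5.40 for inflamed HEC minus BEC and 4.27 for dedifferentiated HEC minus BEC. In cells of a shared range of detected genes, Selp was 2.26 for inflamed HEC minus dedifferentiated HEC and 5.65 for inflamed HEC minus BEC and Sele was 1.36 for dedifferentiated HEC minus homeostatic HEC, 0.13 for inflamed HEC minus dedifferentiated HEC, 1.99 for inflamed HEC minus BEC and 1.85 for dedifferentiated HEC minus BEC. Counting any FPKM above 0, the Selp share was 100% of dedifferentiated HEC, 83.5% of homeostatic HEC and 71.9% of BEC and the Sele share was 78.1% of inflamed HEC, 75% of dedifferentiated HEC, 54.4% of homeostatic HEC and 68.8% of BEC. At an FPKM of 10, the Selp share was 82.8% of inflamed HEC, 50% of dedifferentiated HEC, 40.5% of homeostatic HEC and 0% of BEC and the Sele share was 9.09% of dedifferentiated HEC and 11.4% of homeostatic HEC. After rescaling each cell to a sum of 1000000, with or without Glycam1 and Ccl21a, the Selp share was 37.5% of BEC and the Sele share was 12.5% of BEC. In the shared range, the Selp share was 43.8% of homeostatic HEC and 0% of BEC and the Sele share was 31.2% of inflamed HEC, 54.5% of dedifferentiated HEC and 12.5% of homeostatic HEC. The share of Selp cells among Sele cells was 25% of dedifferentiated HEC at an FPKM of 10 and 50% of homeostatic HEC in the shared range. In dedifferentiated HEC the Selp and Sele correlation was 0.43 as a Spearman correlation, -0.11 with a pseudocount of 10 and 0.17 without cells with markers of another type. In BEC it turned to -0.35 in the shared range. The cause of these shifts was not tested. The shared range, 3209 to 3703 detected genes, kept only 16 inflamed, 11 dedifferentiated and 16 homeostatic HEC and 7 BEC. No paired analysis was possible because each group is 1 sample and no result comes from a test, and for the same reason no replicate could be left out.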
